A study of Triticum aestivum with 8 samples.

Results

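The Cor413 genes encode small plant proteins that span a membrane several times and take their name from cold-regulated transcripts. In Arabidopsis, some members of the family are found in the plasma membrane and others in the inner envelope of the chloroplast. Transcripts of the family are counted among the Cor/Lea transcripts that accumulate as cereals harden at low, non-freezing temperatures. Cor413-Tm1 (annotated LOC543089) and Wcor413-Like (LOC543353) were followed here through cold acclimation. Cor413-Tm1 was taken by its probe set names and Wcor413-Like by the sequence identifier that accompanies its name in the paper. Cor413-Tm1 was measured by 2 probe sets, one with the ending _at and one with the ending _x_at, and Wcor413-Like by 1. These 3 probe sets of 2 genes were chosen out of 61115 tested, by a rule on names and identifiers that contains no measured value. A further gene of the family name, Wcor413 (LOC543255, 1 probe set), was added as a comparison. No other probe set belonged to the same sequence clusters. Among gene symbols and synonyms there were 0 further cor413 names. Since 59842 of the tested probe sets carried no symbol, this search could not show whether the array holds further members of the family.

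Crown tissue, the region above the roots that carries the growing points, was taken without leaf or root material from 2 lines of the winter wheat cultivar Winoka. Both lines came from azide mutagenesis: SD16029 is freeze-resistant (FR) and SD16169 is freeze-susceptible (FS), and each is a single mutant line, so that a difference between them holds for these lines only. Non-acclimated plants (NT) were grown in a greenhouse with long days at 22 to 28°C by the growth protocol, or at 25°C by the series' design text. Cold-acclimated plants (CA) were moved to 4°C on reaching the fourth leaf stage and stayed there for 4 weeks, so that NT and CA also differed in the age of the plants. Each of the 4 groups had 2 arrays, and the methods describe the arrays of a group as technical replicates of RNA pooled from several plants. The p-values therefore measure the spread between arrays and not between plants. In pooled crown RNA, fewer cells of a type and less RNA per cell cannot be told apart.

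All 3 probe sets gave strong signals in every group. The values are log2 signals normalized by the authors with gcRMA, in which array medians lay between 2.86 and 2.95 and the highest values between 16.70 and 16.89. On the _at probe set, Cor413-Tm1 had log2 signals of 12.41 and 12.48 in FR NT, 12.48 and 12.47 in FS NT, 13.52 and 13.54 in FR CA, and 13.74 and 13.65 in FS CA, each pair being the arrays of a group. Every CA array was above every NT array. The NT arrays of the lines overlapped, and the FS CA arrays were both above the FR CA arrays.

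On the _x_at probe set, Cor413-Tm1 had log2 signals of 12.24 and 12.28 (FR NT), 12.34 and 12.13 (FS NT), 13.34 and 13.35 (FR CA), and 13.65 and 13.41 (FS CA). As on the _at probe set, both CA groups were high, with FS CA above FR CA, and the NT groups overlapped. The FS arrays were further apart here, with an SD of 0.14 in FS NT and 0.17 in FS CA (n = 2 each), against 0.03 and 0.0037 in FR. On the array of this design the ending _x_at marks a probe set whose probes may also match other transcripts. Whether either probe set separates the homoeologous copies of hexaploid wheat was not examined.

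Wcor413-Like had log2 signals of 13.22 and 13.24 (FR NT), 13.15 and 13.05 (FS NT), 12.59 and 12.48 (FR CA), and 12.63 and 12.55 (FS CA). Here every CA array was below every NT array. The FR NT arrays were above the FS NT arrays, and the CA arrays of the lines overlapped. Wcor413, in contrast, had 12.32 and 12.52 (FR NT), 12.54 and 12.14 (FS NT), 16.16 and 16.13 (FR CA), and 16.22 and 16.17 (FS CA). Its CA signals were close to the upper end of the arrays' range.

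**Figure D1:**
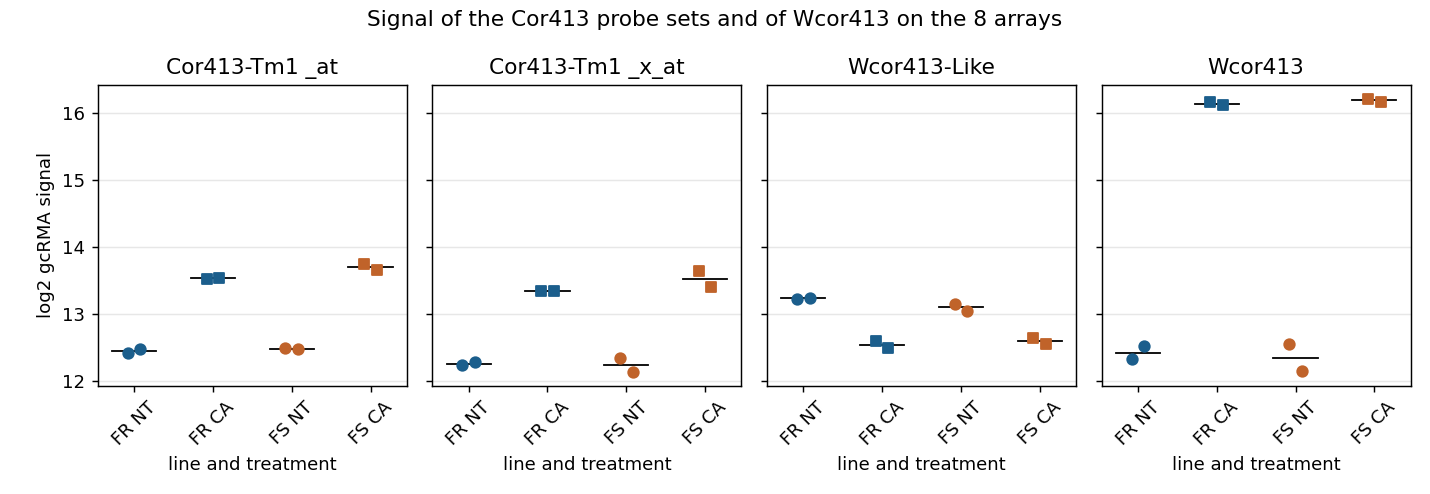
Log2 gcRMA signal (vertical axis) of the probe sets of Cor413-Tm1, Wcor413-Like and Wcor413 on each array, by line and treatment; points are arrays (circles NT, squares CA, blue FR, orange FS) and black lines are group means. The CA arrays of Cor413-Tm1 and Wcor413 lie above all NT arrays, and those of Wcor413-Like lie below them.

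Within the tested probe sets, the group means of Cor413-Tm1 stood at percentiles 96.3 (_at) and 95.9 (_x_at) in FR NT and at 98.3 and 98.0 in FR CA. In FS they stood at 96.3 and 95.7 before cold and at 98.4 and 98.2 after it. Wcor413-Like stood at percentile 97.8 in FR NT against 96.5 in FR CA, and at 97.6 in FS NT against 96.6 in FS CA. Both genes thus remained among the brightest probe sets of the array in both treatments, and neither was switched on or off.

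The first question was how the Cor413 genes responded to 4 weeks at 4°C in each line. Cor413-Tm1 was about 2-fold higher and Wcor413-Like about 1.5-fold lower after acclimation. In FR the _at probe set of Cor413-Tm1 rose by 1.08 log2 units (SE 0.043, 95% interval 0.97 to 1.20, 2.12-fold, limma adjusted p = 0.000157). The _x_at probe set rose by 1.09 (SE 0.106, 95% interval 0.81 to 1.37, 2.13-fold, limma adjusted p = 0.00183). Wcor413-Like was lower in FR CA by a log2 change of -0.69 (SE 0.060, 95% interval -0.85 to -0.53, 1.62-fold lower, limma adjusted p = 0.00128). For scale, over all tested probe sets 15.3% were called higher and 13.6% lower in FR at an adjusted p under 0.05, and the median change was 0.

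In FS the _at probe set of Cor413-Tm1 rose by 1.22 log2 units (95% interval 1.11 to 1.33, 2.33-fold, limma adjusted p = 0.000108). The _x_at probe set rose by 1.29 (95% interval 1.01 to 1.57, 2.45-fold, limma adjusted p = 0.000993). Wcor413-Like changed by -0.51 (95% interval -0.66 to -0.35, 1.42-fold lower, limma adjusted p = 0.00337). Of all tested probe sets, 16.4% were called higher and 13.8% lower in FS. Thus both probe sets of Cor413-Tm1 were called higher and the 1 probe set of Wcor413-Like was called lower in each line, as were many other probe sets of the array.

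Compared with the size of other changes, those of the 2 genes were moderate. The FR change of Cor413-Tm1 stood at percentile 88.5 (_at) and 88.6 (_x_at) of all tested changes, and the FS change at 88.9 and 89.5. For Wcor413-Like the change stood at percentile 14.8 in FR and 16.9 in FS. Wcor413 rose far more, by 3.72 log2 units in FR (SE 0.151, 13.2-fold, limma adjusted p = 0.000163) and by 3.85 in FS (14.4-fold, limma adjusted p = 0.000137). Its change stood at percentiles 99.0 and 98.9. The 3 genes that share the family name therefore had a large rise, a small rise and a small decrease.

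Averaged over both lines, the change was 1.15 for the _at probe set of Cor413-Tm1 (SE 0.031, 2.22-fold, limma adjusted p = 2.63e-05). It was 1.19 for the _x_at probe set (SE 0.075, 2.28-fold, limma adjusted p = 0.000279) and -0.60 for Wcor413-Like (SE 0.043, 1.51-fold lower, limma adjusted p = 0.000417). In that comparison 18.9% of all tested probe sets were called higher and 16.2% lower.

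The size of these changes depended on the scale to which the arrays were set. The 42 probe sets of the poly-A spike-ins, control transcripts added to the RNA during labelling, were 0.60 log2 units higher in CA than in NT in both lines. Their mean also differed between the arrays of a group. It was 7.76 and 8.12 in FR NT, 7.78 and 8.01 in FS NT, 8.34 and 8.74 in FR CA, and 8.43 and 8.57 in FS CA. Centring on the spike-ins carries this spread into every probe set. With every array so centred, the FR rise of Cor413-Tm1 was 0.48 on the _at probe set (limma adjusted p = 0.0877). On the _x_at probe set it was 0.49 (limma adjusted p = 0.0845), so that the FR rise was no longer called. The FS rise of 0.62 and 0.69 was still called. On the same scale Wcor413-Like changed by -1.30 in FR and -1.11 in FS and remained called. With the 36 spike-in probe sets above the array median, a scale chosen after seeing the data, Cor413-Tm1 was called in neither line alone (FR 0.38 and 0.39, FS 0.52 and 0.59). Over both lines it was still called on that scale, at 0.45 (limma adjusted p = 0.0428) and 0.49 (limma adjusted p = 0.0278). The direction was the same for each probe set on every scale tried. The split of calls over the whole array moved as well. As deposited, 52.9% of the FR calls and 54.3% of the FS calls were higher. The shares were 12.9% and 14.0% relative to the spike-ins, and 78.2% and 78.7% with arrays centred on their median. Such scaling shifts every probe set, including the 14644 that had the lowest value, 2.15, on every array. In both lines the median change over all probe sets became -0.60 relative to the spike-ins and 0.07 with median centring. The shares on these scales therefore carry the shift itself and do not count responding transcripts.

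**Figure D2:**
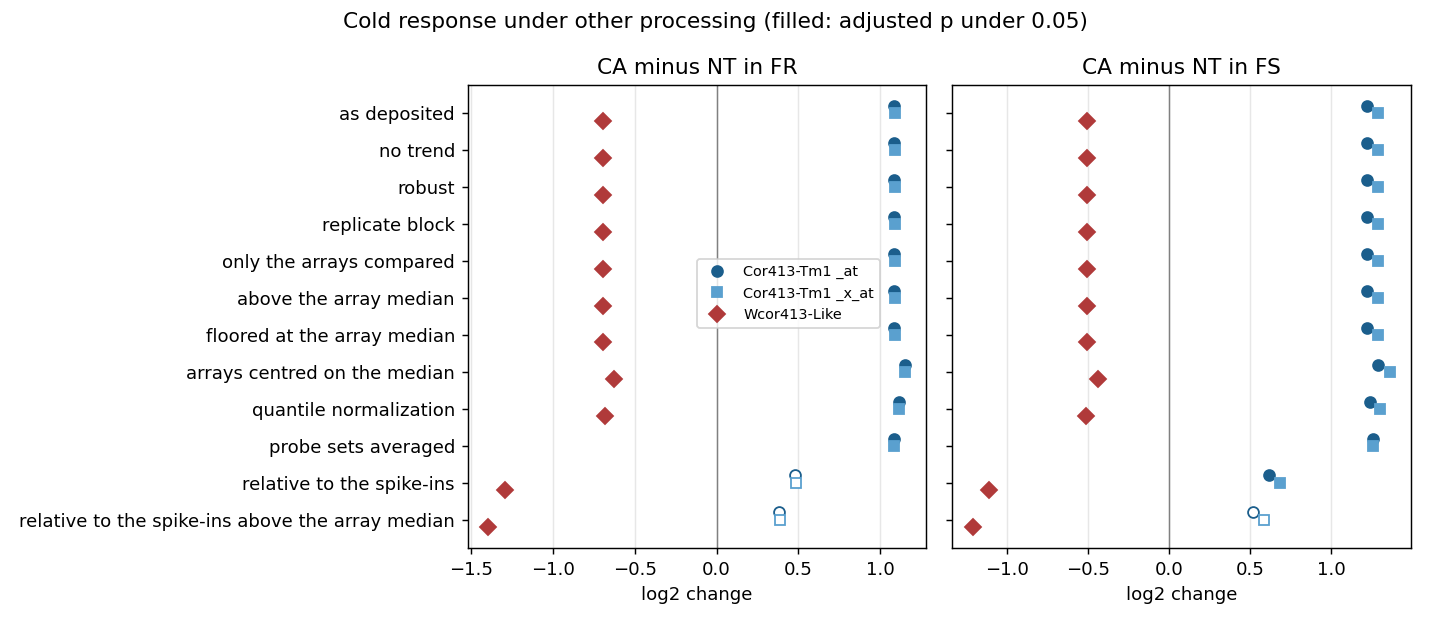
Log2 change from NT to CA (horizontal axis) of the 3 probe sets in FR (left) and FS (right) with the values as deposited and under the other processing choices (rows); filled symbols have a limma adjusted p under 0.05. The changes of Cor413-Tm1 lie between 1.08 and 1.36 except relative to the spike-ins, where they lie between 0.38 and 0.69 and the open symbols show the lost calls.

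A shift common to a whole array cancels in the difference between the genes on that array. The log2 signal of Cor413-Tm1 (mean of its probe sets) minus that of Wcor413-Like was -0.90 and -0.86 in FR NT, -0.74 and -0.75 in FS NT, 0.84 and 0.96 in FR CA, and 1.06 and 0.98 in FS CA. Only the change of this difference can be read, since levels of different probe sets are not comparable. It rose by 1.78 in FR and 1.76 in FS, with no overlap between NT and CA, and by 1.77 on average. An exact two-sided permutation of the treatment labels within each line gave p = 0.0556, the smallest that the 36 arrangements allow, so that this design could not reach 0.05. With either probe set of Cor413-Tm1 alone the average change was 1.75 (_at) and 1.79 (_x_at).

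The probe sets of Cor413-Tm1 gave like changes. Their difference on an array, _at minus _x_at, lay between 0.10 and 0.34 over the 8 arrays. It changed with cold by -0.0049 in FR and -0.07 in FS, on average -0.04 (exact two-sided permutation p = 0.50).

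The second question was whether the lines differed. None of the 3 probe sets was called by limma in any comparison of FR with FS, although the _at probe set of Cor413-Tm1 alone had an unadjusted value under 0.05 in CA and over both treatments. Before cold, FR minus FS was -0.03 (95% interval -0.15 to 0.08) and 0.02 (-0.26 to 0.30) for the _at and _x_at probe sets of Cor413-Tm1 and 0.13 (-0.03 to 0.29) for Wcor413-Like, each with a limma adjusted p of 1. In all, 0.0213% of the tested probe sets were called in this comparison. The sign of both values of Cor413-Tm1 turned when an array was left out or another scale was used. For Wcor413-Like the arrays of the lines did not overlap, yet the interval of the difference included 0.

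After cold, both probe sets of Cor413-Tm1 were lower in FR than in FS, and the arrays of the lines did not overlap on either. The difference was -0.17 on the _at probe set (95% interval -0.28 to -0.05, limma adjusted p = 0.383). On the _x_at probe set it was -0.18 (95% interval -0.46 to 0.10, limma adjusted p = 0.823). Wcor413-Like differed by -0.05 (95% interval -0.21 to 0.10, limma adjusted p = 1). Of all tested probe sets 0.373% were called here. With single arrays left out, the _at value ranged from -0.22 to -0.12. The _x_at value rested on the FS CA arrays: it was -0.06 without FS CA replicate 1 and -0.30 without FS CA replicate 2. None of these was called.

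The difference in cold response between the lines, FR minus FS, was -0.14 (95% interval -0.30 to 0.02) on the _at probe set and -0.20 (-0.60 to 0.19) on the _x_at probe set of Cor413-Tm1. For Wcor413-Like it was -0.19 (-0.41 to 0.04). None was called (limma adjusted p = 1 for each), and 0.108% of all tested probe sets were. The _x_at value was -0.08 without FS CA replicate 1, -0.10 without FS NT replicate 2, -0.31 without FS NT replicate 1 and -0.32 without FS CA replicate 2. The _at value was -0.09 without FS CA replicate 1. For each probe set the point estimate lay toward a smaller rise or a larger decrease in FR. Averaged over treatments, FR minus FS was -0.10 on the _at probe set (95% interval -0.18 to -0.02, limma adjusted p = 0.715). It was -0.08 on the _x_at probe set (-0.0188 to -0.14 with single arrays left out, limma adjusted p = 0.970) and 0.04 for Wcor413-Like (limma adjusted p = 0.990). In that comparison also 0.108% of all tested probe sets were called. The order of levels of Cor413-Tm1 was therefore FS CA, FR CA and then both NT groups, and that of Wcor413-Like was FR NT, FS NT and then both CA groups. Only the steps between treatments were called after adjustment over all tested probe sets.

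**Figure D3:**
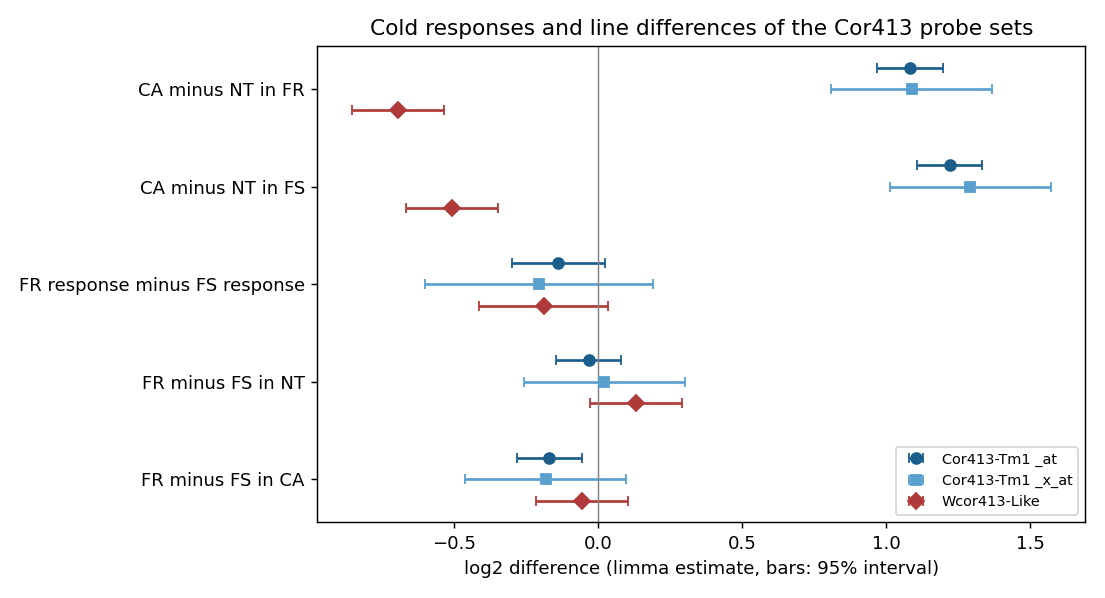
Log2 difference (horizontal axis) of each probe set of Cor413-Tm1 and Wcor413-Like in the comparisons named at the left, with 95% intervals of the limma model (bars). The intervals of the cold responses lie away from 0 on opposite sides for the 2 genes, while those of FR minus FS in NT and of the difference in response include 0. In CA the interval of the _at probe set of Cor413-Tm1 does not (-0.28 to -0.05), although the probe set was not called after adjustment.

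The other cold-regulated genes give the setting of these responses. Of 18 Cor/Lea genes displayed with the Cor413 genes in the paper, Wcor413 included, 15 were matched to 18 probe sets, and Wcor518, Wrab19 and Wdhn13 were not analysed here. The paper shows this list from the same arrays, so that its direction is no independent evidence. In FR, 16 probe sets were called higher, 0 lower and 2 were not called, with a median change of 4.13 and a range from 0.00 to 10.50. In FS, 17 were called higher, 0 lower and 1 was not called, with a median of 4.28 and a range from 0.05 to 11.01. Over all tested probe sets, 15.3% were called higher and 13.6% lower in FR, and 16.4% and 13.8% in FS. The largest change of the list was that of Wrab18, a Lea gene of the group responsive to abscisic acid. Wcor719 changed by 0.70 in FR and 1.10 in FS. The acidic dehydrin gene Wcor410C changed by 0.40 and 0.50, and Wcor410 by 0.00 and 0.05, the latter not called in either line. The signal level of Wcor410 was not examined, so that its lack of change cannot be read as steady expression. The changes of Cor413-Tm1 were thus between those of Wcor719 and the other, more strongly responding probe sets. As deposited, no probe set of the list had a negative change in either line, unlike Wcor413-Like. The list was not fitted relative to the spike-ins. The changes of Wcor410, Wcor410B (0.42 in FR and 0.55 in FS) and Wcor410C were smaller than the spike-in shift of 0.60. This contrast with Wcor413-Like therefore holds for the deposited scale only. In the comparisons of FR with FS, before cold, after cold or in response, 0 of the 18 probe sets were called by limma. The shares called over all tested probe sets were 0.0213%, 0.373% and 0.108%, so that 0 of 18 is near what the whole array gave. Without adjustment, 1, 3 and 1 of the 18 were under 0.05. The share of the whole array under 0.05 without adjustment was not examined.

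**Figure D4:**
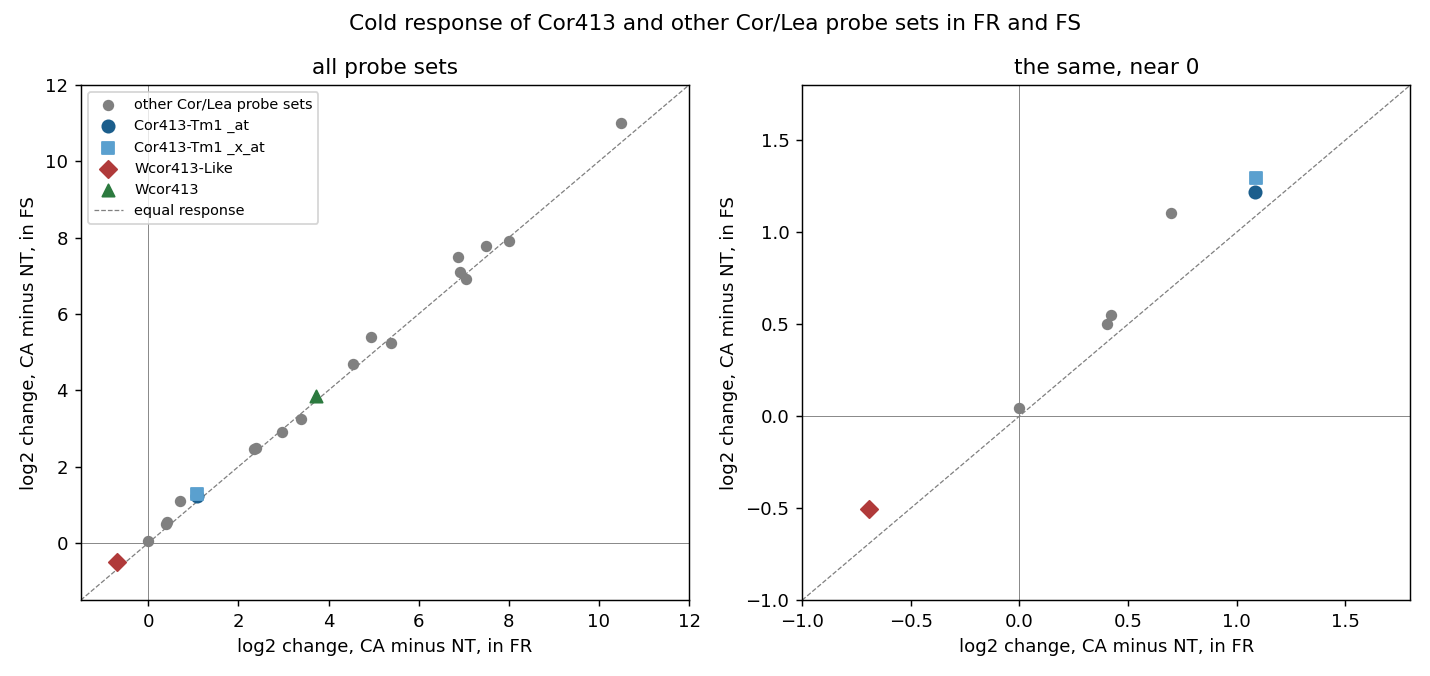
Log2 change from NT to CA in FR (horizontal axis) against that in FS (vertical axis) for the Cor413 probe sets (coloured) and the other Cor/Lea probe sets (grey), over the whole range at the left and near 0 at the right; the dashed line marks equal responses. With the values as deposited, Cor413-Tm1 lies at the lower end of the rising probe sets (1.08 and 1.22 on the _at probe set). Wcor413 lies in the middle (3.72 and 3.85), and Wcor413-Like alone lies below 0 on both axes (-0.69 and -0.51).

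Among 25 names of other membrane proteins, such as lipocalins, aquaporins and desaturases, only the plasma membrane proton pump gene ha1 was matched by name, with 3 probe sets. Its changes were 0.09, 0.03 and 0.0047 in FR and 0.0081, -0.05 and 0.10 in FS, none of them called.

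The named probe sets most like each gene were found by the root mean square difference of centred log2 signals over the 8 arrays, among 887 named probe sets above the array median. For Cor413-Tm1 they were LOC543278 (AGA.1, a large subunit of ADP-glucose pyrophosphorylase in starch synthesis) at 0.0934, LOC606326 at 0.0958 and LOC543155 at 0.105. They had changes of 1.14, 1.23 and 1.02 in FR and of 1.19, 1.26 and 1.16 in FS. For Wcor413-Like they were LOC100049049 at 0.0713, LOC543425 at 0.0740 and LOC543244 at 0.0839. Their changes were -0.61, -0.65 and -0.72 in FR and -0.56, -0.62 and -0.66 in FS. The same 3 were found for each gene with arrays centred on their median.

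Other measures moved with cold as well. Pearson correlations over probe sets were 0.995 to 0.997 within groups and 0.994 to 0.997 between the lines of a treatment, whereas NT with CA gave 0.910 to 0.923. The summed signal of 5 probe sets of leaf photosynthesis genes was 15.85 to 16.14 on the log2 scale in NT and 14.31 to 14.64 in CA, with 4 of the 5 above the array median on all arrays and 1 petC probe set at the floor. That of 18 histone probe sets, which mark dividing cells, was 18.45 to 18.66 in NT and 11.95 to 12.25 in CA, with 17 of the 18 above the median on all arrays. The _s_at probe set of H2A-3 rose by 0.99 in FR and 1.31 in FS. All the others were lower in CA, among them the _at probe set of the same gene (-4.90 and -5.17). The 3′ minus 5′ signal of the array's control genes, a measure of RNA integrity, changed by 0.06 in FR and 0.15 in FS for ubiquitin, by 0.43 and 0.30 for G-6-PDH, and by 0.28 and -0.33 for sucrose synthase. For each of these genes it was higher on replicate 2 than on replicate 1 in every group, as was the mean spike-in signal. For sucrose synthase it was 5.24 to 5.55 on the arrays numbered 1 and 6.38 to 7.48 on those numbered 2. The array's wheat control probe sets moved in both directions as deposited. Those of ubiquitin changed by 0.15 to 0.38, those of G-6-PDH by 0.47 to 0.97 and those of sucrose synthase by 0.63 to 1.22 over both lines, and 18S rRNA by 1.73 in FR and 1.95 in FS. The actin probe sets that were off the floor changed by -0.27 and -0.74 in FR and by -0.60 and -1.20 in FS, at signals of at most 4.25. The 3′ and middle probe sets of CYP86-TA changed by -3.02 and -2.51 in FR and by -3.60 and -1.88 in FS, at signals up to 8.87. Its 5′ probe set was 2.24 on every array. The ef1a probe sets off the floor changed by 0.13 to 0.36, and the gapdh probe sets by -0.12 to 0.00. The part of these measures in the changes of the Cor413 genes was not tested.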

How the data were processed

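Crown RNA of 8 samples was hybridised to Affymetrix wheat arrays. The deposited log2 values were background-corrected and normalized by the authors with gcRMA, and RMA and GCRMA stand in the submitters' processing notes. The table held 61290 probe sets without a missing value. After 175 controls (111 AFFX, 64 RPTR) were left out, 61115 were tested as deposited, with no filter. A floor of 2.15 was shared by 14644 of them on every array. Symbols came from the array annotation and a RefSeq gene table (IWGSC CS RefSeq v2.1): 1273 probe sets carried 1 symbol and 59842 none.

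The log2 values were fitted with limma 3.58.1 (R 4.3.3), with a mean for each of the 4 groups, empirical Bayes moderation along an intensity trend (residual degrees of freedom 4, prior 0.623) and Benjamini-Hochberg adjustment over all tested probe sets. Calls are at adjusted p under 0.05, and the intervals given are the model's 95% intervals. The limma fit was tested on simulated data for the comparison of FR CA with FR NT only, and the other steps were not tested in this way. Differences within arrays were tested by exact permutation.

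The named genes were the Cor413 probe sets, Wcor413, the 3 named probe sets nearest to each gene, and the Cor/Lea and membrane protein lists. The members' rule uses names and identifiers, but the members and lists were chosen with earlier results of these data known. The housekeeping list matched no symbol, and the array's own wheat control probe sets were read in its place. Alternatives were the variance prior, a replicate block, the arrays fitted, a filter and a floor at the array median, 3 other scalings, averaged probe sets and leaving out each array; a further spike-in scaling was chosen after seeing the data. The number of arrays limits the precision. Plots were made in Python 3.11.15 (matplotlib 3.10.9).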

Additional observations from a re-analysis of the deposited data

How the results depend on the processing

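The calls of the cold responses of the Cor413 probe sets were lost only relative to the spike-ins. With all spike-in probe sets, the FR change of Cor413-Tm1 was 0.48 (_at) and 0.49 (_x_at). With those above the array median it was 0.38 and 0.39 in FR and 0.52 and 0.59 in FS. The cause was not tested. Differences between the lines that were near 0 changed sign under some settings without being called. Before cold, the _x_at probe set of Cor413-Tm1 turned to -0.019 and -0.026 relative to the spike-ins and to -0.0044 with probe sets averaged, and ranged from -0.079 to 0.12 with an array left out. The _at probe set turned to 0.019 with quantile normalization and ranged from -0.065 to 0.0014 with an array left out. After cold, Wcor413-Like turned to 0.0035 with quantile normalization and ranged from -0.11 to 0.0023 with an array left out. Over both treatments it turned to -0.0014 and -0.0081 relative to the spike-ins. With a replicate block the FR change of Cor413-Tm1 (_at) was 1.08 (limma adjusted p = 0.0012), and the block changed no call of the 3 probe sets. Deviations of arrays with the same replicate number correlated at 0.127 to 0.448 over the 6 pairs of groups, but the labels do not say what the number marks. Leaving out an array changed no call of the 3 probe sets, with the remaining array of that group assumed to vary like the other groups. Over all probe sets, the count called in FR was 17687 as deposited and ranged from 13064 to 48380 under the other settings, and in FS 18419, from 16236 to 48997. Over both lines it was 21409, from 19662 to 52500. The highest counts came from the floor at the array median in each line and from the spike-in scaling over both lines. With that floor, every probe set below the median took the array's own median, which moved by -0.07 with cold in each line. The spike-in scaling likewise shifted every probe set, those at the floor of 2.15 included. These highest counts therefore include such shifts and are no estimate of how many transcripts responded. Between lines it was 13 before cold (0 to 28, and 14 to 1212 with an array left out) and 228 after cold (35 to 552, and 32 to 2170). For the difference in response it was 66 (15 to 259, and 888 to 1862), and for the line difference over both treatments 66 (14 to 250, and 905 to 1863).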
